A study of Mus musculus with 10 samples.

Results

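FLAG-tagged TET2 was mapped by ChIP-seq with an anti-FLAG affinity resin in mouse embryonic stem (ES) cells, beside the same pull-down from untagged parental cells. The merged peaks of the 2 FLAG-TET2 and the 2 parental lists gave 70879 regions on the 21 assembled chromosomes, and the regions were sorted by which lists held a peak in them. Tagged-only regions were called in FLAG-TET2 replicates 1 and 2 but in neither parental library (10022 regions, 14.1% of all). A shared region had a peak in all 4 lists (8017 regions, 11.3%). Parental-only regions were called in 1 or both parental libraries and in neither FLAG-TET2 library (7752 regions, 10.9%). All 8 peak lists of the series together gave 79350 merged regions.

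All cells of the arm carried the genotype Tet2fl/fl, in which Tet2 is flanked by loxP sites, and the labels name no deletion of it in this arm. The tagged cells carried a 2x-Flag tag on TET2 at the endogenous locus, and the tag field of the parental cells reads Empty. Cells were grown on gelatin in 15% serum with LIF, 3 µM CHIR99021 (a GSK-3 inhibitor) and 1 µM PD0325901 (a MEK1 inhibitor). Chromatin was fixed with 2 mM disuccinimidyl glutarate and then 1% formaldehyde, and 300 µg went into each pull-down. For comparison, 4 other libraries were made with a rabbit polyclonal antibody to TET2 itself (N-terminal), 2 from untagged Tet2fl/fl cells (called wild-type) and 2 from Tet2-/- cells (called Tet2 knockout). Each group had 2 libraries (n = 2). The labels do not say whether the 2 came from separate cultures or whether the tagged line was 1 clone, and p-values then measure only the spread between these libraries, which may be technical. Peak lists hold no RNA values, so the ES cell label was not checked against marker expression.

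TET2 is an enzyme that oxidises 5-methylcytosine in CpG dinucleotides, a step towards the loss of DNA methylation. It has no CXXC DNA-binding domain of its own and reaches chromatin with partner proteins. In ES cells TET2 is known for acting at enhancers, while its relative TET1 is more often linked to promoters rich in CpG. A parental pull-down measures what the resin recovers from cells that hold no tag.

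The promoters under the leading regions are shown first. RefSeq windows (GRCm38.p6, 250 bases before to 50 after a transcription start) are printed 5′ to 3′ on the strand of the gene. The 4 leading tagged-only regions by rank that overlapped such a window are shown, and 3 of their 4 windows held almost no CpG. These 3 were not typical of tagged-only windows. Their ratios of observed to expected CpG were 0.139 (Pipox), 0 (Gm52782) and 0.133 (Rgs12). The median was 0.712 over all 587 tagged-only windows and 0.567 over all promoter windows. The 2 leading shared windows are set beside the 4, and capitals mark every CpG in these 6 windows.
Pipox, tagged-only, chr11:77893823-77894122, minus strand: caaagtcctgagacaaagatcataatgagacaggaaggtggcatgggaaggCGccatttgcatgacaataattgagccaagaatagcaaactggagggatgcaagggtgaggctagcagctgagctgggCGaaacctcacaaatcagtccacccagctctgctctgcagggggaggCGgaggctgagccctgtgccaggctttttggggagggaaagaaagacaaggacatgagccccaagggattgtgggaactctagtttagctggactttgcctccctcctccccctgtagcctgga
Gm52782, tagged-only, chr5:33825977-33826276, minus strand: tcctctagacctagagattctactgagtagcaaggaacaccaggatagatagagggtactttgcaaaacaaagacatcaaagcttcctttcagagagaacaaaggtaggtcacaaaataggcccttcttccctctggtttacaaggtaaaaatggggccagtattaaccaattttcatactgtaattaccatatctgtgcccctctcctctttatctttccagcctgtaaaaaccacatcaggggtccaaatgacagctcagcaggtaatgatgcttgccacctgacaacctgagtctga
Slc25a11, tagged-only, chr11:70646990-70647289, minus strand: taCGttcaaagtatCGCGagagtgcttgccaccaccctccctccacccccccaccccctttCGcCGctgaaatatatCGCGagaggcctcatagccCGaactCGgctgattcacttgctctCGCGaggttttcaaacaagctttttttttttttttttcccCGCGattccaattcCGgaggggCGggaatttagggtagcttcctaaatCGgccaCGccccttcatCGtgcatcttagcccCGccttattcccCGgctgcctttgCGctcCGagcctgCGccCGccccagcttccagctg
Rgs12, tagged-only, chr5:34998828-34999127, plus strand: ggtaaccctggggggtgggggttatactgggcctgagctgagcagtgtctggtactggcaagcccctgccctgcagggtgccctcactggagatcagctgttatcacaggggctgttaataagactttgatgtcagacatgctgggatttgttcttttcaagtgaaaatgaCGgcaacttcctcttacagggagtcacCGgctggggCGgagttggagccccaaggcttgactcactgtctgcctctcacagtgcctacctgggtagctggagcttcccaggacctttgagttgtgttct
Iqsec3, shared, chr6:121473629-121473928, minus strand: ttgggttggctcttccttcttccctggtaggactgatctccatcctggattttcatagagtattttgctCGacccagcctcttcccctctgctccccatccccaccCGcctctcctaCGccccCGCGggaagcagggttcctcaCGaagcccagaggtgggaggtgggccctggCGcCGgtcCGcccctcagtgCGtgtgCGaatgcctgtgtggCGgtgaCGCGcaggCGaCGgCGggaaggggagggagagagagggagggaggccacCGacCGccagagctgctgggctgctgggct
Insm2, shared, chr12:55598667-55598966, plus strand: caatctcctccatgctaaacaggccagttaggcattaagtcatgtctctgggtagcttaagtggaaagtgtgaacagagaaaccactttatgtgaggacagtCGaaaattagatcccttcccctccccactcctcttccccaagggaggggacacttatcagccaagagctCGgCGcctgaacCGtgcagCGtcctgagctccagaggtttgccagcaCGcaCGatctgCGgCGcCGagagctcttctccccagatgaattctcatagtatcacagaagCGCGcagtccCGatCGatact

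The windows of Pipox and Rgs12 held 3 CpG each, that of Gm52782 held 0, and that of Slc25a11 held 24. The shared windows of Iqsec3 and Insm2 held 19 and 14. Pipox encodes a peroxisomal sarcosine oxidase, Slc25a11 the mitochondrial oxoglutarate carrier and Rgs12 a regulator of G-protein signalling. Iqsec3 encodes an exchange factor for ARF GTPases at inhibitory synapses, and Insm2 a zinc-finger protein of the INSM family. The region over the Pipox window had authors' fold enrichments (peak over control track, a linear ratio) of 19.9 in FLAG-TET2 replicate 1 and 11.01 in replicate 2. At Slc25a11 the folds were 17.9 and 11.002, at Gm52782 17.0 and 11.5, and at Rgs12 15.4 and 11.7. The Iqsec3 region had folds of 99.0 and 71.9 in the FLAG-TET2 lists and of 95.5 and 74.8 in the parental lists. Insm2 had 95.7 and 65.8 against 91.9 and 71.7. The shared windows were ranked on all 4 lists and the tagged-only ones on the FLAG-TET2 lists, so these folds are a description. Each fold is the authors' value for a peak and was read only within its own list.

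A further set of 3 promoters is shown for the letters under the summits, which are described further on. Each held both arms of the RE1 element, the site bound by the repressor REST, and capitals mark the arms on either strand. They are the 3 leading windows of this kind among shared regions, chosen after the values were seen.
Unc13a, chr8:71671708-71672007, minus strand: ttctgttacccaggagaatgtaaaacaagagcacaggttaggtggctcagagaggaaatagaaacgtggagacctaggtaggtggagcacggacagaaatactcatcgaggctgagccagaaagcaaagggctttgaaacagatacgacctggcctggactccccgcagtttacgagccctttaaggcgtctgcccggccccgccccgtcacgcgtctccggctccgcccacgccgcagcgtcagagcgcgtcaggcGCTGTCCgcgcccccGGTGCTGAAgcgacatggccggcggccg
Grm2, chr9:106656060-106656359, minus strand: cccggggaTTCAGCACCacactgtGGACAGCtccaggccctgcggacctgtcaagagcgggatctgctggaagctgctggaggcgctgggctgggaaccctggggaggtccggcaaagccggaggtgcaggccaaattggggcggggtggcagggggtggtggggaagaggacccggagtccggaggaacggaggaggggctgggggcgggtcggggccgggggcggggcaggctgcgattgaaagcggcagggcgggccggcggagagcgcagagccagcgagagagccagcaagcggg
Marchf4, chr1:72537110-72537409, minus strand: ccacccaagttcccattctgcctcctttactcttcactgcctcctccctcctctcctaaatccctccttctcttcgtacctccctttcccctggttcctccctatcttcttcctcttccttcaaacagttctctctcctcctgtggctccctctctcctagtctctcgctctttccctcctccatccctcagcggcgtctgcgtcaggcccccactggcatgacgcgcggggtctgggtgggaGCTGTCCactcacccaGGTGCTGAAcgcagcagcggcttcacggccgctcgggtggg

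The number of peaks differed as much between replicates as between groups. On the chromosomes used, 63578 peaks were kept for FLAG-TET2 replicate 1 and 28245 for replicate 2, against 36518 for parental replicate 1 and 10122 for replicate 2. Parental replicate 1 lay above FLAG-TET2 replicate 2, so the groups overlapped. The mean log2 difference was 1.14 (2.2-fold) in favour of the tagged cells, with p = 0.667 by a two-sided exact permutation test (n = 2 and 2). The smallest p that this exact test can give with 2 against 2 is 0.333. The read depth behind the lists is not given in the sources used here, and its part in the list lengths was not tested. The log2 difference was 0.21 without parental replicate 2 and 2.07 without parental replicate 1.

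The shorter list of each group lay almost wholly inside the longer one. Of the FLAG-TET2 replicate 2 peaks, 97.4% overlapped a replicate 1 peak, while 39.5% of the replicate 1 peaks overlapped one of replicate 2. Of the parental replicate 2 peaks, 98.4% overlapped a parental replicate 1 peak and 98.3% a FLAG-TET2 replicate 1 peak. The most frequent pattern was a peak in FLAG-TET2 replicate 1 alone, with 26848 regions, 37.9% of all. A further 9948 regions had peaks in FLAG-TET2 replicate 1 and parental replicate 1, and 6529 in both FLAG-TET2 lists and parental replicate 1. Of the parental-only regions, 7621 had a peak in parental replicate 1 alone, 23 in parental replicate 2 alone and 108 in both. The class parental-only is therefore almost entirely a description of 1 library.

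**Figure D1:**
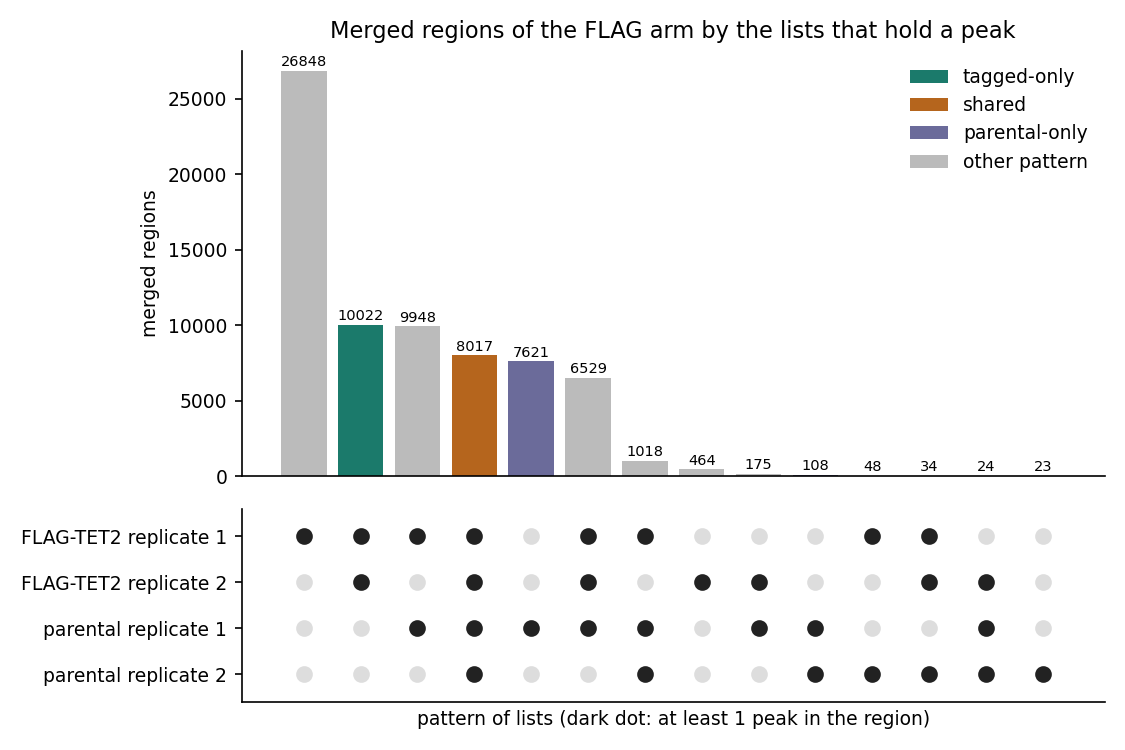
Number of merged regions (bars, y axis) for each combination of the 4 lists of the FLAG arm, with dark dots below marking the lists that hold a peak. The tallest bar, 26848 regions, belongs to FLAG-TET2 replicate 1 alone, and 10022 regions are tagged-only against 8017 shared.

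Tagged-only regions were narrower and lower than shared ones. Their median width was 353 bp (quartiles 270 and 479), against 577 bp (323 and 998) for shared and 151 bp (133 and 177) for parental-only regions. In FLAG-TET2 replicate 1 the median fold was 9.85 in tagged-only and 12.9 in shared regions, and in replicate 2 it was 6.34 and 8.32. Shared regions had median folds of 13.1 and 8.17 in parental replicates 1 and 2, and parental-only regions had 6.19 in replicate 1. These folds describe classes that the peak calls themselves define, and no test was made on them. Summits of the 2 FLAG-TET2 lists lay a median of 28 bp apart in tagged-only regions. In shared regions the distance was 20 bp, and the 2 parental summits lay 19 bp apart.

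Some regions lay close to the line between the classes. Of the 10022 tagged-only regions, 139 ended within 100 bp of a parental peak, with median folds of 8.21 and 5.77 in FLAG-TET2 replicates 1 and 2. On the other side of the line were 6529 regions with peaks in both FLAG-TET2 lists and in parental replicate 1 alone. In 731 of these the parental peak came from the lowest 10% of its list. That share is close to the 10% that the cut itself sets for the whole list. Their median folds were 8.36 and 5.77 in the FLAG-TET2 lists and 4.33 in parental replicate 1. The median distance of a tagged-only region to the nearest parental peak was 11.3 kb, and 13.5% of them lay within 1000 bp of one.

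The leading 10 tagged-only regions lay between 2.82 and 283 kb from the nearest start site in the promoter table, and 6 of the 10 lay inside a gene span. The promoter table does not hold every gene, so a nearer start site can be missing from it. The region near Zyg11a lay 0.767 kb from an end of that gene but 53.4 kb from a start site of the table. Whether that end is the start of Zyg11a was not read, since the gene table gives no strand. Rank was set by −log10 q, as a percentile within each FLAG-TET2 list and averaged over the pair. The first, on chromosome 8 from 72334135 to 72334679 and 6.31 kb from Eps15l1 (an endocytosis adaptor), had folds of 32.9 and 28.2 in FLAG-TET2 replicates 1 and 2. A region inside the span of Dyrk1a, a protein kinase (chromosome 16, 94601572 to 94602022), had 35.5 and 26.2. One in Prickle2, a planar cell polarity gene (chromosome 6, 92495077 to 92495993), had 39.5 and 26.1. The region in Notch2, which encodes a receptor (chromosome 3, 98024360 to 98024860), had 38.3 and 21.9. That in Dpm1, a subunit of dolichol-phosphate mannose synthase (chromosome 2, 168214057 to 168214455), had 29.3 and 23.8. The other 5 of the leading 10 lay in or near Chn2, Max, Magi1, Gabbr2 and Zyg11a, with folds from 19.6 to 38.8. The TET2 antibody lists were not used to choose these 10, and wild-type replicates 1 and 2 each had a peak at every one. Wild-type replicate 1 folds at the 10 ran from 17.2 at Dpm1 to 35.4 at Gabbr2. Those near Eps15l1 and in Prickle2 also had a peak in Tet2 knockout replicate 2, at 5.93 and 6.78.

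The leading shared regions were among the highest peaks of every list. The one 4.46 kb from Smim17 (chromosome 7, 6409941 to 6410729) had folds of 101 and 74.7 in FLAG-TET2 replicates 1 and 2, and of 97.5 and 78.6 in parental replicates 1 and 2. A region in Trappc9, which encodes a subunit of the TRAPP trafficking complex (chromosome 15, 72689461 to 72690360), had 101 and 73.6 against 97.5 and 78.3. Other leading shared regions lay beside Vstm2l, 0.84 kb away, and 138 kb from Gm51483. Immp2l, a mitochondrial inner membrane peptidase subunit, was the nearest gene of another at 1017 kb. The region near Smim17 had antibody peaks in wild-type replicates 1 and 2, at folds of 10.3 and 7.44. The regions near Trappc9, Gm51483 and Immp2l had no peak in any TET2 antibody list, and that near Vstm2l had 1, at a fold of 5.50 in wild-type replicate 1. The seventh in rank lay in Scrt1, a neuronal zinc-finger repressor, with FLAG-TET2 folds of 99.7 and 72.2 and wild-type antibody folds of 9.98 and 6.71. These regions were ranked on all 4 lists, so their height in each list follows from the choice.

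Parental-only regions were weak. The 6 leading ones, taken from the 108 with a peak in both parental lists, lay in or nearest to Chd9 (a chromatin remodeller), Itch (a ubiquitin ligase), Tmem132c, Glrx5, Slc6a17 and Olfr1352. Their folds ran from 9.87 to 14.7 in parental replicate 1 and from 7.83 to 9.10 in parental replicate 2. None of these 6 had a peak in a TET2 antibody list.

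The TET2 antibody lists, made from other libraries, give a readout that did not enter the classes. Of the tagged-only regions, 86.3% (95% Clopper-Pearson interval 85.6 to 87.0) had a peak in wild-type replicate 1, and 55.4% (54.4 to 56.4) in wild-type replicate 2. Shared regions had 49.6% (48.5 to 50.7) and 37.2% (36.1 to 38.2), and parental-only regions 5.52% (5.02 to 6.05) and 1.51% (1.25 to 1.81). Over all merged regions the shares were 42.3% and 22.9%. In the Tet2 knockout lists tagged-only regions had peaks at 1.24% and 10.3%, shared regions at 3.04% and 18.5%, and parental-only regions at 0.568% and 2.73%. Over all merged regions the knockout shares were 1.81% and 9.55%. Tagged-only regions thus held the largest share of wild-type antibody peaks of the 3 classes in both wild-type lists. Of the 3 classes, shared regions held the largest share of knockout peaks in both knockout lists. The 6529 regions in both FLAG-TET2 lists and parental replicate 1, outside the 3 classes, had more, at 4.49% and 23.4%. Intervals cover counting error only, and regions are not replicates, so no test between classes was made.

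The tagged-only regions that the antibody lists missed were the lower ones. In 1330 of them (13.3%) neither wild-type list had a peak, and their median folds were 6.93 and 5.29 in FLAG-TET2 replicates 1 and 2. The 8692 with a wild-type peak had median folds of 10.4 and 6.52. Of the 1330, only 9 had a peak in the leading 10% of FLAG-TET2 replicate 1 and 0 in that of replicate 2. Regions with a peak in FLAG-TET2 replicate 1 alone were met by wild-type replicate 1 in 35.4% of cases. The 6529 regions in both FLAG-TET2 lists and parental replicate 1 were met in 75.4%, well above the shared regions. Leaving out tagged-only regions within 1 kb of a parental peak gave 86.8% and 55.5% for the wild-type lists.

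**Figure D2:**
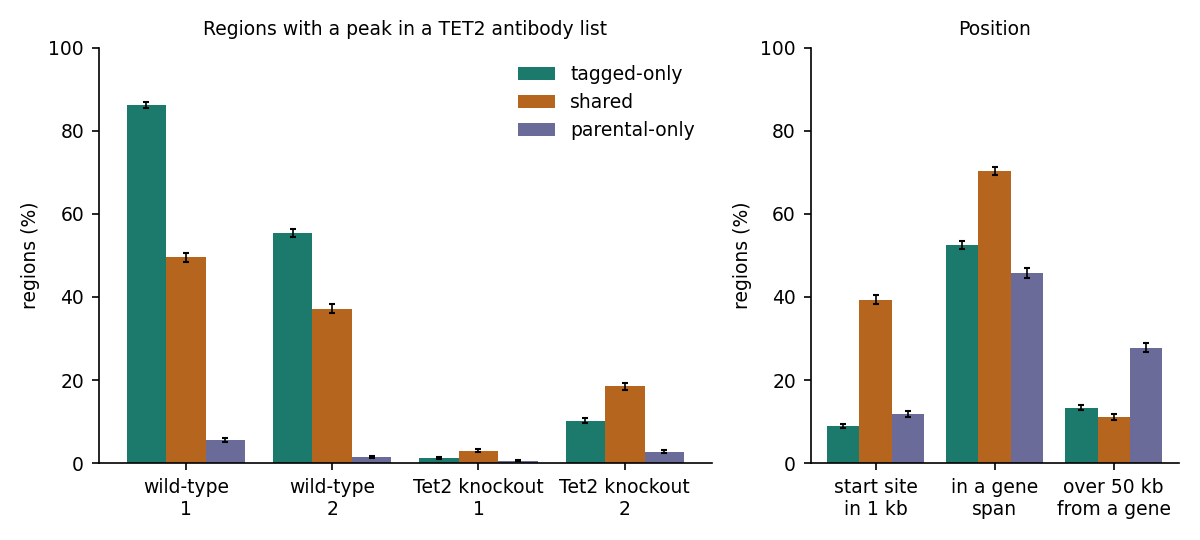
Share of regions (y axis, %) of the tagged-only, shared and parental-only classes that had a peak in each TET2 antibody list (left) and that lay at the named positions (right), with 95% Clopper-Pearson intervals as error bars. Tagged-only regions reach 86.3% in wild-type replicate 1, and shared regions lead at start sites with 39.3%.

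Tagged-only regions lay away from promoters. Of those off chromosome 18, for which the promoter table was used, 8.96% (8.39 to 9.54) lay within 1 kb of a start site, against 19.6% of all merged regions. The share was 39.3% (38.2 to 40.4) for shared and 11.8% (11.1 to 12.6) for parental-only regions. The table holds windows of 17492 of 21887 protein-coding genes, so these shares are lower limits. Inside a protein-coding gene span lay 52.5% of tagged-only, 70.3% of shared and 45.8% of parental-only regions, against 56.0% of all merged regions. Beyond 50 kb of any such gene lay 13.3%, 11.1% and 27.8%, against 16.3% of all merged regions. Without parental replicate 1 the tagged-only class rose to 16551 regions and its start-site share to 23.9%. That share therefore rested on the longer parental list.

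Promoters in the 2 main classes also differed in CpG content. The median ratio of observed to expected CpG was 0.712 in the 587 windows that overlapped a tagged-only region and 0.867 in the 3453 that overlapped a shared one. Over all 21263 windows it was 0.567. Median GC content was 60.3% and 63.7%, against 56.3% for all windows. The E-box CACGTG, read on both strands, was in 9.54% of tagged-only windows (7.29 to 12.2), 11.8% of shared windows and 7.84% of all windows. CCGGAAG, the core that ETS factors bind, was in 17.5% (14.6 to 20.9) of tagged-only, 23.0% of shared and 11.6% of all windows.

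Shared regions were divided by rank into 2 kinds, with a cut set after the lists were seen. Whether they form separate groups was not tested. In 3554 of them (44.3%) the parental replicate 1 peak was in the leading 10% of its list, and in 4463 it was not. The first kind had median folds of 23.9, 15.4, 27.7 and 16.5 in FLAG-TET2 replicates 1 and 2 and parental replicates 1 and 2. The second kind had 10.1, 6.65, 9.29 and 6.31. The gap in parental replicate 1 follows from the cut, and the folds of the other lists are a description. Only 16.0% (14.8 to 17.2) of the first kind lay at a start site, against 57.9% (56.4 to 59.4) of the second. Of the first kind 79.2% had no wild-type antibody peak, against 26.8% of the second. Median widths were 435 and 836 bp. The high shared regions were thus narrower, less often at a start site and more often without a wild-type antibody peak than the lower ones.

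Each whole list was then ranked and cut into classes of 10% by −log10 q. In parental replicate 1 the leading 10% had a FLAG-TET2 replicate 2 peak in 98.4% of cases and a parental replicate 2 peak in 98.6%, but a wild-type antibody peak in 19.4% and a start site in 15.6%. Its lowest 10% had 29.3%, 2.82%, 46.6% and 42.5%. In parental replicate 2 a wild-type peak was found at 20.6% of the leading and 69.0% of the lowest 10%. FLAG-TET2 replicate 1 did not run one way. Its lowest 10% had a wild-type peak in 27.9% of cases, the 10% just below the top in 77.1% and its leading 10% in 59.8%, while the share with a parental replicate 2 peak went from 0.724% over 33.8% to 55.3%. FLAG-TET2 replicate 2 went from 66.3% over 73.0% to 36.4% for wild-type peaks, and parental replicate 1 peaks met 86.2% of its leading 10%. Rank classes of 1 list share its library and depth, and these shares carry no test.

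**Figure D3:**
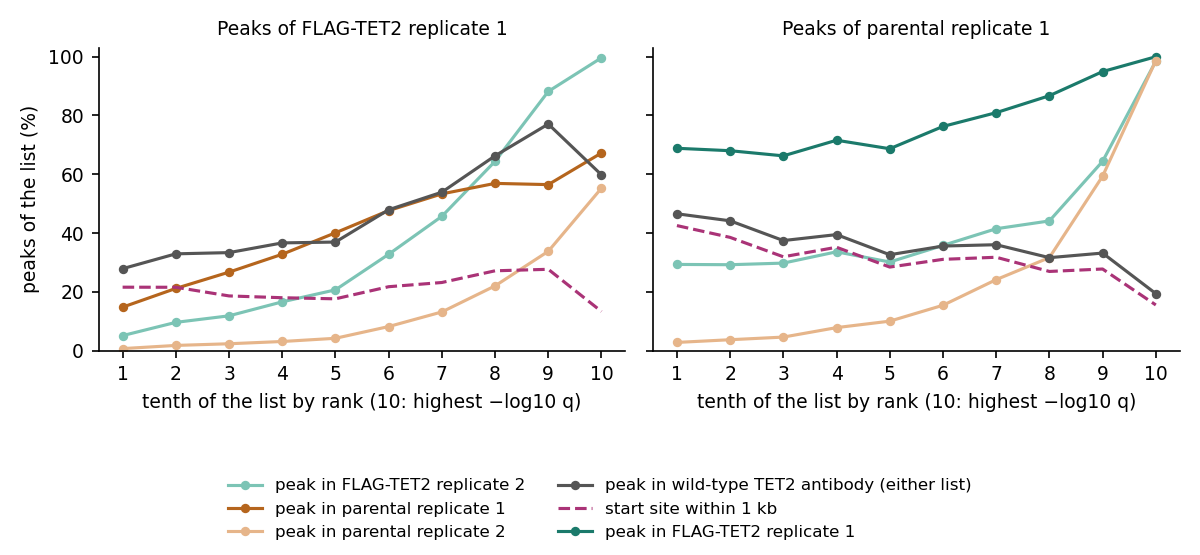
Share of peaks (y axis, %) of FLAG-TET2 replicate 1 (left) and parental replicate 1 (right) that overlap a peak of another list or lie within 1 kb of a start site, in rank classes of 10% of the list ranked on −log10 q (x axis). In the leading parental 10% 98.6% have a parental replicate 2 peak but 19.4% a wild-type antibody peak.

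The letters of the RE1 element were frequent in promoters under the highest parental summits. REST, which binds RE1, is known for repressing neuronal genes outside neurons. In the windows that held a summit from the leading 10% of parental replicate 1, every 8-letter word present in at least 10 of them was counted on both strands. The 2 words with the largest excess over all windows were TGGACAGC (26.7% against 1.44%) and TCAGCACC (29 of 116 windows, against 1.69% of all), letters of the right and the left arm of RE1. GGACAGC and TTCAGCACC were taken from that search on the same windows, so their shares are a description. Read on both strands, GGACAGC was in 61 of 116 windows that held a summit from the leading 10% of parental replicate 1 (52.6%, 43.1 to 61.9). Among all 21263 windows 6.88% held it. In the 10% just below it the share was 13.1% and in the lowest 10% 6.09%.

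The leading 10% of the other 3 lists of the arm held the right arm too. GGACAGC was in 61.0% of 41 windows in parental replicate 2, 52.8% of 89 in FLAG-TET2 replicate 2 and 31.0% of 213 in FLAG-TET2 replicate 1. In the leading 10% of the TET2 antibody lists it was in 4.76% of 504 windows for wild-type replicate 1 and 5.86% of 273 for replicate 2. The Tet2 knockout lists had 5.48% of 73 and 4.20% of 262. By overlap with a region at any rank, 6.98% (5.06 to 9.36) of tagged-only windows held it, against 6.88% of all windows. The same overlap gave 9.59% for shared regions, 16.7% for shared regions of the first kind and 11.5% for parental-only regions. The word was taken from windows under parental summits and tagged-only regions hold no parental peak, so their low share follows in part from the rule. By summits, the right arm was thus frequent at the top of each FLAG resin list, with or without the tag. At the top of each antibody list it was between 4.20% and 5.86%, not above all windows.

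**Figure D4:**
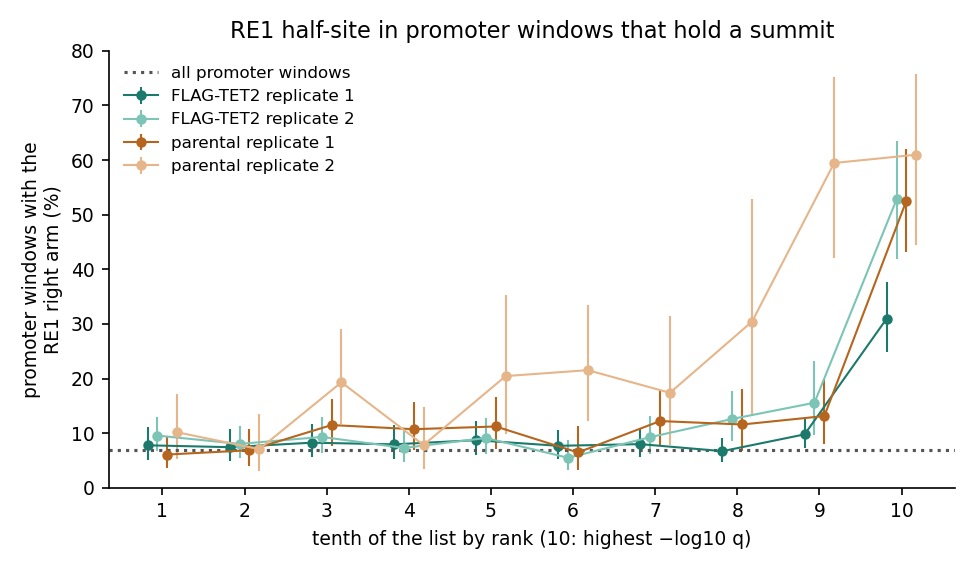
Share of promoter windows holding a peak summit that also hold the right arm of RE1 (y axis, %, with 95% Clopper-Pearson intervals), in rank classes of 10% of each list ranked on −log10 q (x axis), with the share of all windows as a dotted line. The 4 lists of the FLAG arm reach between 31.0% and 61.0% in their leading 10%, against 6.88% of all windows.

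The right arm lay close to the summit. In the 61 windows its centre was a median of 8.5 bp from the parental replicate 1 summit (quartiles 4.5 and 18.5), and in 57 of them it was within 50 bp. In 171 windows that held the word and a summit from the rest of the list the median was 41.5 bp. The left arm TTCAGCACC was in 4.64% of the windows that overlapped a shared region of the first kind and in 0.414% of all windows. Both arms were in 12 of all 21263 windows, and each of the 12 overlapped a shared region of that kind. In 10 of these 12 the arms stood in the order of the element, with between 0 and 9 letters between them. In the printed windows Unc13a had 8 letters between the arms, Grm2 had 7 and Marchf4 had 9.

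These 3 genes have known roles outside this assay. Unc13a primes synaptic vesicles for release, Grm2 is a metabotropic glutamate receptor and Marchf4 a membrane-bound ubiquitin ligase. The Unc13a region had folds of 70.5 and 43.1 in FLAG-TET2 replicates 1 and 2 and of 74.0 and 51.3 in parental replicates 1 and 2. Grm2 had 57.2 and 36.5 against 64.7 and 38.8, and Marchf4 had 37.5 and 27.9 against 40.2 and 27.8. All 3 had a peak in wild-type replicate 1 and Unc13a also in wild-type replicate 2, and none had one in a Tet2 knockout list. Of the 61 windows with GGACAGC under a leading parental replicate 1 summit, 78.7% had a peak in wild-type replicate 1 and 49.2% in wild-type replicate 2. In Tet2 knockout replicates 1 and 2 the shares of the 61 were 3.28% and 29.5%. The other 55 windows had 70.9% and 45.5% in the wild-type lists and 5.45% and 16.4% in the knockout lists. Knockout replicate 1 thus went the other way from the other lists. These shares were not counted over all promoter windows. The printed windows of Iqsec3 and Insm2 hold no GGACAGC, which says only that these letters are not in those 300 bases.

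Neuronal genes known to hold RE1 elements were read next, as a list of 30 written after the right arm was seen. A shared region was nearest, within 50 kb, to 29 of the 30 (26.1% of all protein-coding genes), and a tagged-only region to 4 (13.3%, 3.76 to 30.7, beside 24.0% of all). The 4 became 17 without FLAG-TET2 replicate 2 (52.8% of all genes) and 10 without parental replicate 1 (37.4% of all genes). Every one of the 30 was nearest gene of some merged region, as were 73.7% of all genes. At Glra1, a glycine receptor subunit, the shared region had folds of 95.6 and 56.9 in the FLAG-TET2 lists and 94.0 and 72.7 in the parental lists. At Snap25, a synaptic vesicle fusion protein, the values were 91.4 and 62.0 against 93.2 and 70.8. Celsr3, a cadherin of axon guidance, had 49.2 and 35.4 against 46.0 and 36.9, and Stmn3, a microtubule regulator, 56.1 and 61.2 against 72.0 and 50.6. The region at Glra1 had antibody peaks in wild-type replicates 1 and 2 (8.53 and 6.14) and in Tet2 knockout replicate 2 (5.75), and that at Snap25 in the wild-type lists (6.78 and 6.71). The regions at Celsr3 and Stmn3 had no peak in any antibody list.

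Genes of the pluripotent state were often nearest to a tagged-only region, but they also gathered regions of every kind. Of 59 genes in 3 lists (core pluripotency, naive state with LIF and inhibitor targets, formative and primed state), 45 were nearest to a tagged-only region, or 76.3% against 24.0% of all genes. A shared region was nearest to 31 of them (52.5% against 26.1%) and a parental-only region to 29 (49.2% against 19.6%). These genes had a median of 9 merged regions of any kind, while the median gene had 2. The median length of the 59 was 10.9 kb and that of all genes 17.2 kb.

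Core factors led with 17 of 20 genes. Jarid2, a partner of Polycomb complex PRC2, had 9 tagged-only regions, the highest with folds of 27.7 and 14.8 in FLAG-TET2 replicates 1 and 2. Mycn, a MYC family factor, had a tagged-only region 1.28 kb away with 26.2 and 14.5. Sox2 had one 15.7 kb away with 23.6 and 11.7. Wild-type replicates 1 and 2 also had peaks at these 3. The highest shared regions of the list were elsewhere: Lin28a, an RNA-binding protein, had 36.3 and 25.7 in the FLAG-TET2 lists and 36.0 and 27.9 in the parental lists, 1.08 kb from the gene and with no antibody peak. At Nanog a shared region over the start site had 31.6 and 21.5 against 32.5 and 19.6, with wild-type antibody folds of 14.8 and 6.35. The shared regions at Dppa5a, Pou5f1 and Sall4 also had a peak in wild-type replicate 1, and that at Sall4 in wild-type replicate 2 too. The Dppa5a region had a fold of 6.14 in wild-type replicate 1 and a peak in Tet2 knockout replicate 2, at 5.20. Lin28a and Nanog also had 3 and 2 tagged-only regions of lower rank. Dppa5a, Pou5f1 and Sall4 had tagged-only regions as well, numbering 5, 4 and 2. The leading one at Pou5f1 lay 578 bp from the gene.

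The naive list had 17 of 22 genes with a tagged-only region. Klf2 had one at 2.45 kb with folds of 20.5 and 12.8, Socs3, the feedback inhibitor of LIF signalling, one at 2.18 kb with 25.9 and 14.3, and Dppa3 one at 1.57 kb with 20.7 and 13.8. Socs3 had 8 tagged-only regions and 0 shared ones. The region at Dppa3 also had a peak in Tet2 knockout replicate 2, at a fold of 7.60. Of the formative and primed list 13 of 19 were met, led by Lef1 (20.97 and 7.36), Dnmt3a (20.1 and 11.7) and Spry2 (15.1 and 9.29), a feedback inhibitor of FGF signalling.

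Among DNA methylation genes 12 of 19 had a tagged-only region (63.2% against 24.0% of all genes) and 6 a shared region (31.6% against 26.1%). Uhrf2, a reader of modified cytosine, had folds of 25.8 and 14.5 at 0.90 kb, and Tet3 had 24.4 and 9.52 inside the gene. Tet2 itself (chromosome 3, 133463677 to 133545136) was the nearest gene of 22 regions at any distance, of which 4 were tagged-only and 0 shared. Within the 50 kb limit used for the other genes it had 18 regions. FLAG-TET2 replicates 1 and 2 had peaks in 18 and 7 of the 22, parental replicate 1 in 11 and parental replicate 2 in 0. Its highest region (133524447 to 133525255) had folds of 20.2 and 12.4 in the tagged lists, and fell outside the tagged-only class through a parental replicate 1 peak at 5.98. Peaks over Tet2 do not check the tag, since they measure occupancy and not the protein. Of Polycomb and trithorax genes 13 of 25 had a tagged-only region and 13 a shared one (52.0% each, against 24.0% and 26.1%), with Kdm2b (16.7 and 10.9) and Eed (14.5 and 9.84) next after Jarid2.

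Genes of other cell types were read beside the 24.0% of all genes with a tagged-only region. Lineage transcription factors had one in 9 of 22 cases (40.9%, 20.7 to 63.6), among them Gsc (16.3 and 10.0 in the FLAG-TET2 lists), a factor of the early embryo's organizer. Hematopoietic genes had one in 8 of 19 (42.1%, 20.3 to 66.5), among them Gfi1b (15.2 and 9.81), a repressor of blood cell development, and Kit (14.1 and 9.73), a receptor. Fibroblast genes had one in 7 of 14 (50.0%, 23.0 to 77.0), led by Col3a1 at 24.8 and 17.3. Without FLAG-TET2 replicate 2 the lineage factors numbered 19, beside 52.8% of all genes. A list of skin, sensory and some liver, islet and heart genes, taken as silent in ES cells, had one in 1 of 22 cases (4.55%). It lay 4.90 kb from Vmn1r1, with 18.4 and 12.3. That these genes are silent here was not checked. The intervals of the lineage, hematopoietic and fibroblast lists include the share of all genes. A region near a gene does not show that the gene is used.

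Ribosomal protein genes were mostly nearest to shared regions. Of 34 cytosolic ribosomal protein genes 32 had a shared region (94.1% against 26.1% of all genes) and 5 a tagged-only one (14.7%, 4.95 to 31.1, an interval that includes the 24.0% of all genes). At Rpl4 the shared region over the start site had folds of 16.3 and 9.16 in the FLAG-TET2 lists and 21.98 and 12.51 in the parental lists. Rpl19 had 16.7 and 9.54 against 17.8 and 8.58. Of 18 replication-dependent histone genes 1 had a tagged-only region (5.56%, 0.141 to 27.3, against 24.0% of all genes). A shared region was nearest to 8 of them (44.4%, 21.5 to 69.2, against 26.1%). Both intervals include the share of all genes, and all 18 were nearest gene of some region. H1f4, a linker histone gene, had 17.4 and 7.99 against 25.4 and 12.8. Housekeeping genes had both: 13 of 20 a tagged-only region and 18 a shared one (24.0% and 26.1% of all genes), such as Eef1a1, a translation elongation factor, with a shared region at 18.1 and 10.6 against 21.7 and 10.1. Actb had 1 tagged-only region, 16.4 kb from the gene, at 17.9 and 9.15, and 2 shared regions. These counts rested on 2 libraries. Without FLAG-TET2 replicate 2 the ribosomal genes with a tagged-only region numbered 22 and the histone genes 9 (52.8% of all genes), and without parental replicate 1 they numbered 16 and 7 (37.4% of all genes).

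**Figure D5:**
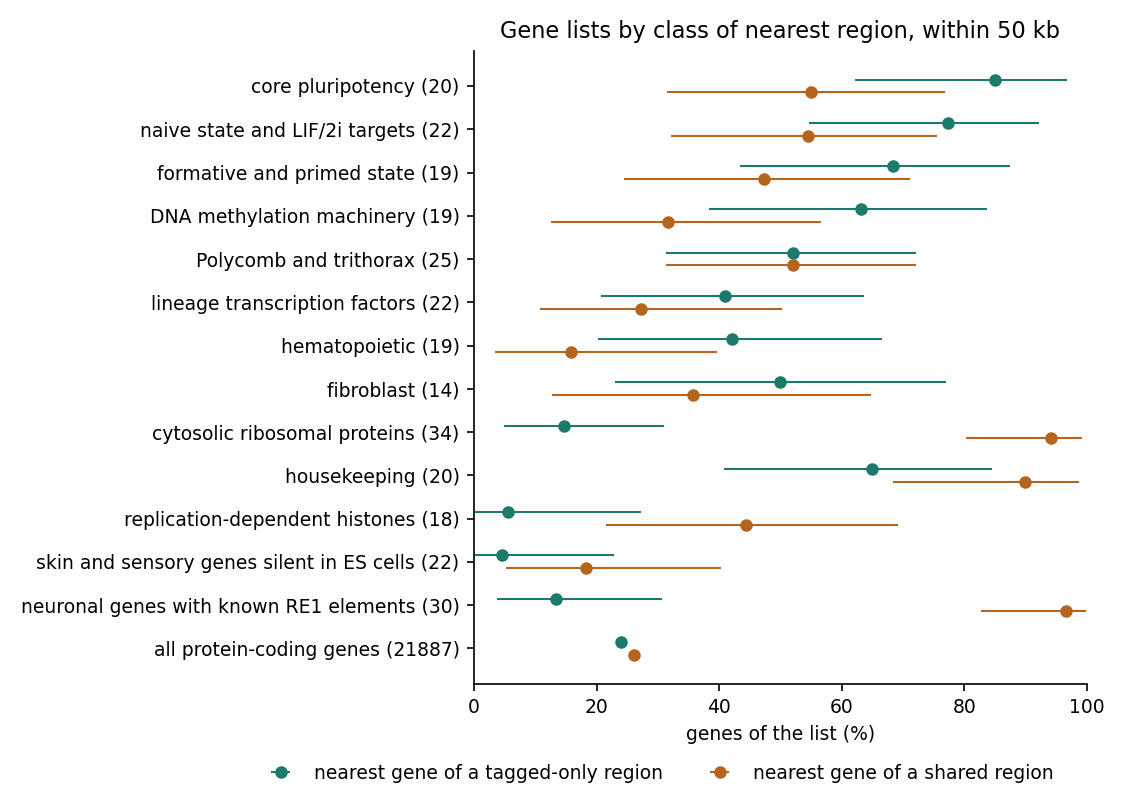
Share of the genes of each list (x axis, %, number of genes in brackets) that were nearest gene of a tagged-only or a shared region within 50 kb, with 95% Clopper-Pearson intervals. Core pluripotency genes reach 85.0% for tagged-only regions, and ribosomal protein and RE1 neuronal genes 94.1% and 96.7% for shared regions.

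Tagged-only regions stood in groups more often than shared ones. When regions of 1 class within 12500 bp of each other were joined, 65.2% of tagged-only regions stood alone, against 80.7% of shared and 86.7% of parental-only regions. Groups of 5 or more numbered 55, 4 and 4. The classes held 10022, 8017 and 7752 regions, and a larger class has more neighbours in range. No comparison at equal class size was made. Off chromosome 18, a group of 9 tagged-only regions spanned 26.5 kb on chromosome 7 (45551563 to 45578099) nearest to Bcat2, Hsd17b14 and Plekha4. Groups of 8 lay at Bcat1, which like Bcat2 encodes a branched-chain aminotransferase, at Etnk1, and at Cd9 and Plekhg6, all on chromosome 6. The largest shared group, of 10 regions, lay on chromosome Y (90797698 to 90812210) nearest to Gm52481. A shared group of 6 lay in the histone gene cluster of chromosome 13 (23550896 to 23585687).

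The genes with most tagged-only regions were long. Magi1, a junction scaffold gene of 608 kb, had 17 among 47 merged regions of any kind. Etl4 (900.3 kb) had 16 among 53, and Ptprg, a receptor phosphatase gene of 689 kb, 12 among 35. Shorter were Tcf7l1, the WNT pathway repressor, with 13 over 163 kb and 1 shared region, and Rbpms, an RNA-binding protein gene, with 12 over 147 kb and 1 shared region. In each of these 5 genes at least 10 regions had a peak in FLAG-TET2 replicate 1 alone.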

How the data were processed

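ChIP-seq peaks had been called by the authors separately in each library, since each deposited list holds the peaks of 1 library. The build is mm10 and the tools are MACS2, Bowtie2, Trimmomatic, DESeq2 and DiffBind, per the submitters' processing notes, which give no version or role. Deposited peak names carry q10, rmChrM, rmDUP and IgG. Per peak the deposited lists give a score, a fold enrichment over the control track (a linear ratio), −log10 p and −log10 q values, and a summit offset. Read counts and depth are not given in the sources used here. Input and IgG were not analysed here.

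Peaks on 21 chromosomes were merged where they shared 1 bp, and 10 to 34 peaks per list on other sequences were dropped (Python 3.11.15, pandas 2.3.3, numpy 2.4.6, scipy 1.17.1). Merging and distances were tested on simulated data. The nearest protein-coding gene came from a RefSeq table of GRCm38.p6 (21887 genes, no strand). Counts of genes used a limit of 50 kb, while leading regions and those of Tet2 had no limit. All 284 list symbols matched. Promoter windows came from RefSeq (17492 genes), and 805 of 805 overlapping opposite-strand pairs matched as reverse complements. Members and lists were chosen with earlier results of these data known.

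Named regions followed a rule: the 10 leading tagged-only, 6 leading shared and 6 leading parental-only regions by mean percentile of −log10 q, up to 3 members of each list, the 6 genes with most tagged-only regions, Tet2, and the leading promoters. The regions at Scrt1 and the members named for shared regions were added after their values were seen. Not reported here are 1 leading shared region and 1 of the 6 genes, both on chromosome 18, and 1 list member. Intervals are 95% Clopper-Pearson. The alternatives were a stricter −log10 q, other overlaps, summit windows, equal list lengths, other distances and each library left out.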

Additional observations from a re-analysis of the deposited data

How the results depend on the processing

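Leaving out 1 library at a time gave between 10056 and 36870 tagged-only, 8041 and 14546 shared and 131 and 18766 parental-only regions. Start-site shares ran from 9.05% to 23.9% in tagged-only and from 36.7% to 42.6% in shared regions. The tagged-only class was 36870 without FLAG-TET2 replicate 2 and 16551 without parental replicate 1, and the parental-only class was 18766 without FLAG-TET2 replicate 1. With −log10 q of at least 5 the shared start-site share was 35.0%. With windows of 100 bp around summits there were 11653 parental-only regions, and the start-site shares were 13.6% for tagged-only and 32.2% for shared regions. With every list cut to its 10122 highest peaks there were 3445 tagged-only and 3967 shared regions, with start-site shares of 6.74% and 22.4%. Within 5 kb of a start site lay 19.5% and 45.7%, and within 1 kb of either gene end 11.7% and 43.9%. Regions of both FLAG-TET2 lists with a peak in at least 1 parental list numbered 14580, and those of both parental lists and no FLAG-TET2 list 108. The right-arm share of RE1 was 31.0% when FLAG-TET2 replicate 1 replaced parental replicate 1, an alternative chosen after seeing the data. With the replicate number as a block the log2 difference in peak number was 1.14 (exact sign-flip permutation p = 0.5, n = 2 pairs). Without the block it ran from 0.21 without parental replicate 2 to 2.07 without parental replicate 1, in a design whose exact permutation p cannot reach 0.05. The cause was not tested, except that leaving out a list loosens the class it defined. The lists give no depth, so peaks missing from the shorter lists cannot be called absent.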

Other observations

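MicroRNA genes of ES cells were not among the lists. Of 1005 RefSeq hairpins on the chromosomes covered, 22 (2.19%) lay within 1 kb of a tagged-only and 63 (6.27%) within 1 kb of a shared region. The widest shared region of the arm, 5419 bp on chromosome 7 (3217429 to 3222847), covered the Mir290 to Mir295 cluster, the main microRNA cluster of mouse ES cells. Its folds were 11.9 and 8.71 in FLAG-TET2 replicates 1 and 2 and 15.0 and 6.999 in parental replicates 1 and 2, and it had a peak in both wild-type antibody lists and in Tet2 knockout replicate 2. A tagged-only region (3212964 to 3213948) lay 4.68 kb upstream of Mir290a, with folds of 12.6 and 7.06 and peaks in both wild-type lists and no knockout list. The related Mir302 cluster on chromosome 3 had a shared region 7.31 kb from Mir302d (127553000 to 127553819), with folds of 8.81 and 7.29 against 13.9 and 7.86. A tagged-only region 14.6 kb from Mir302b (127530265 to 127530613) had 19.0 and 8.32. Mature arms of both clusters that carry the same seed, bases 2 to 8 in capitals, are shown because they join the 2 loci. They come from a set that does not hold both arms of every hairpin, with only miR-302a-5p for Mir302a.
miR-291a-3p: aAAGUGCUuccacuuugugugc
miR-294-3p: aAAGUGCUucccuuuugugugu
miR-295-3p: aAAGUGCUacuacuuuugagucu
miR-302b-3p: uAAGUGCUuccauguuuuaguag
miR-302d-3p: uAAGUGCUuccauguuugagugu

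The Mir17 cluster on chromosome 14 had a shared region 0.657 kb from Mir17 (115040474 to 115043014), with folds of 11.02 and 7.19 in the FLAG-TET2 lists and 11.97 and 6.93 in the parental lists, and a peak in all 4 antibody lists. The nearest tagged-only region lay 163 kb away. The loci were chosen after the lists were seen, and their values carry no test.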
